A study of Mus musculus with 6 samples.

Results

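Promoter-flanking accessible regions are the stretches of open chromatin next to, but outside, the promoters of protein-coding genes. They were defined by position alone. The MACS2 peaks of all 6 lists on chromosomes 1 to 19 and X were merged into 112652 regions, and a region was a member when its midpoint lay over 1 kb and at most 5 kb from the nearest GENCODE M21 protein-coding start on mm10 (GRCm38) and over 1 kb from every other gene start. This left 10239 flanking regions, or 9.09% of all regions, of which 4915 lay upstream and 5324 downstream of the nearest start. They belonged to 7089 genes. A single member lay next to 4859 of these genes, 1261 genes had members on both sides, and the most for 1 gene was 9. The other regions comprised 15898 promoter regions within 1 kb of a protein-coding start, 82227 distal regions over 5 kb away and 4288 regions close to a noncoding start.

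The assay was ATAC-seq, in which the Tn5 transposase inserts sequencing adapters into open DNA. All 6 samples were sorted leukemic granulocyte-macrophage progenitors (L-GMP), labelled AML LSCs (leukemia stem cells) of genotype WT with blood as the tissue, from the murine leukemia model driven by retroviral expression of the MLL-AF9 fusion. All were cultured with 20% FBS and 10 ng/ml mouse IL3, 3 as Control and 3 with MMF for 24 h (the sources give more than 1 dose and time). MMF, mycophenolate mofetil, inhibits inosine monophosphate dehydrogenase, the enzyme that commits purine synthesis to guanine nucleotides. The labels do not say that the 3 samples of a group came from separate mice or cultures, and the methods speak of biologically independent experiments or samples in general without naming this assay. The p-values therefore measure the spread between these samples, which may be technical. Of the markers of these progenitors, Kit had an accessible promoter in all 6 lists, Cd34 in 3 control and 2 MMF lists and Fcgr3 in 1 control and 3 MMF lists. No promoter peak was called at the T cell gene Cd3e in any list.

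The sequence next to a gene start is a mixture of elements. CpG-dense islands often reach past the promoter, first introns commonly hold enhancers, and upstream flanks hold proximal enhancers that are bound by lineage factors. In myeloid cells these factors include PU.1, the C/EBP proteins, RUNX1 and AP-1. NF-Y, KLF and many ETS proteins other than PU.1 are better known for binding at promoters, and CTCF marks boundaries and loop anchors.

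The following windows of 120 bp, from the plus strand of the GRCm38 RefSeq assembly and centred on the summit, show what such members look like. They were picked by a fixed order as the 3 shared members that rose most with MMF, the 2 that fell most, and the gained and the lost member of highest rank. Capitals mark matches to the motifs searched, given with the motif results.
Olfr1389, higher with MMF, chr11:49425670-49425789: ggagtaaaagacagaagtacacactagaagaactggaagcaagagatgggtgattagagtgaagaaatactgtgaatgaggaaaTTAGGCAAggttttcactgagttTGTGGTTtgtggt
Cd300e, higher with MMF, chr11:115059898-115060017: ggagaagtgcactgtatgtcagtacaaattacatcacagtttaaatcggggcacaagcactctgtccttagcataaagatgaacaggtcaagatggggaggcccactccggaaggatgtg
Gja5, higher with MMF, chr3:97035699-97035818: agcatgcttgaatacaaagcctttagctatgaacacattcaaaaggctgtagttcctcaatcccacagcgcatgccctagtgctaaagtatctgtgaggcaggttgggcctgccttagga
Rtbdn, lower with MMF, chr8:84952941-84953060: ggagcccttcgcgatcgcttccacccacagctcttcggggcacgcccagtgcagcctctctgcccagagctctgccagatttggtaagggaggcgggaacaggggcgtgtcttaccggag
Ints1, lower with MMF, chr5:139777055-139777174: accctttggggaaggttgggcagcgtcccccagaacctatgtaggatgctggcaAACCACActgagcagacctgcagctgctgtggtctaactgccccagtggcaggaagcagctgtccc
Clec4b2, gained with MMF, chr6:123175686-123175805: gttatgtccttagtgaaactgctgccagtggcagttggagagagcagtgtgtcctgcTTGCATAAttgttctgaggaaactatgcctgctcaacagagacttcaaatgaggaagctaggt
Fbxo43, lost with MMF, chr15:36167778-36167897: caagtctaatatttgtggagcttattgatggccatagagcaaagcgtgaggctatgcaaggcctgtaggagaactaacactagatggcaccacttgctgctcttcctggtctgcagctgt
The Olfr1389 window held a C/EBP and a RUNX match and the Clec4b2 window a C/EBP match, and neither held a CpG dinucleotide. Rtbdn held 8 CpG dinucleotides in its window and no match.

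Flanking regions were small and, in base composition, closer to distal regions than to promoters. Their median width was 275 bp, against 697 bp for promoter regions and 286 bp for distal regions. In the 200 bp around the summit they held on average 4.03 CpG dinucleotides, against 15.2 in promoter and 2.83 in distal regions. Downstream members were the richer side, with 4.45 CpG against 3.57 upstream. The annotation under the midpoint differed as the geometry requires. Upstream members were intergenic in 60.8% of cases and intronic in 33.9%, in a neighbouring gene or a longer transcript, whereas 80.2% of downstream members were intronic and 8.66% lay in coding exons.

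Counted per Mb of genome that meets the distance rule, there were 60.4 upstream and 59.0 downstream members per Mb, against 298 promoter regions and 36.1 distal regions per Mb. Density fell quickly away from the start. Upstream it went from 73.2 per Mb at 1000 to 1500 bp to 57.1 at 2000 to 2500 bp, and downstream from 80.2 to 56.1 over the same bins. It then changed little up to the 5 kb limit and rose just outside it. On both sides together there were 54.1 regions per Mb between 4.5 and 5 kb and 72.5 per Mb between 5.5 and 6 kb.

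The background that MACS2 set for each peak stepped at the same place. MACS2 compares the reads over a summit with the larger of a genome-wide and a local expectation, and the local one is taken from windows around the peak. At 4.5 to 5 kb the median peak had a local background of 2.35 ± 0.0863 (SD, n = 3) times the genome-wide one in control and 2.45 ± 0.0491 (SD, n = 3) times in MMF. Beyond the limit, at 5.5 to 6 kb, the ratios were 1.54 ± 0.0414 and 1.53 ± 0.0219. Over all flanking peaks the ratio was 2.72 ± 0.0590 in control and 2.73 ± 0.0404 in MMF (n = 3 each, exact permutation test, two-sided, p = 0.8), compared with 3.94 and 3.74 for promoter and 1.22 and 1.24 for distal peaks. Only 14.8% of flanking peaks were called against the genome-wide background, against 38.3% of distal peaks. A weak peak therefore needed more reads to be listed within 5 kb of a start than farther out, at similar background ratios in both treatments, and how much of the step in density this makes up was not tested.

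**Figure D1:**
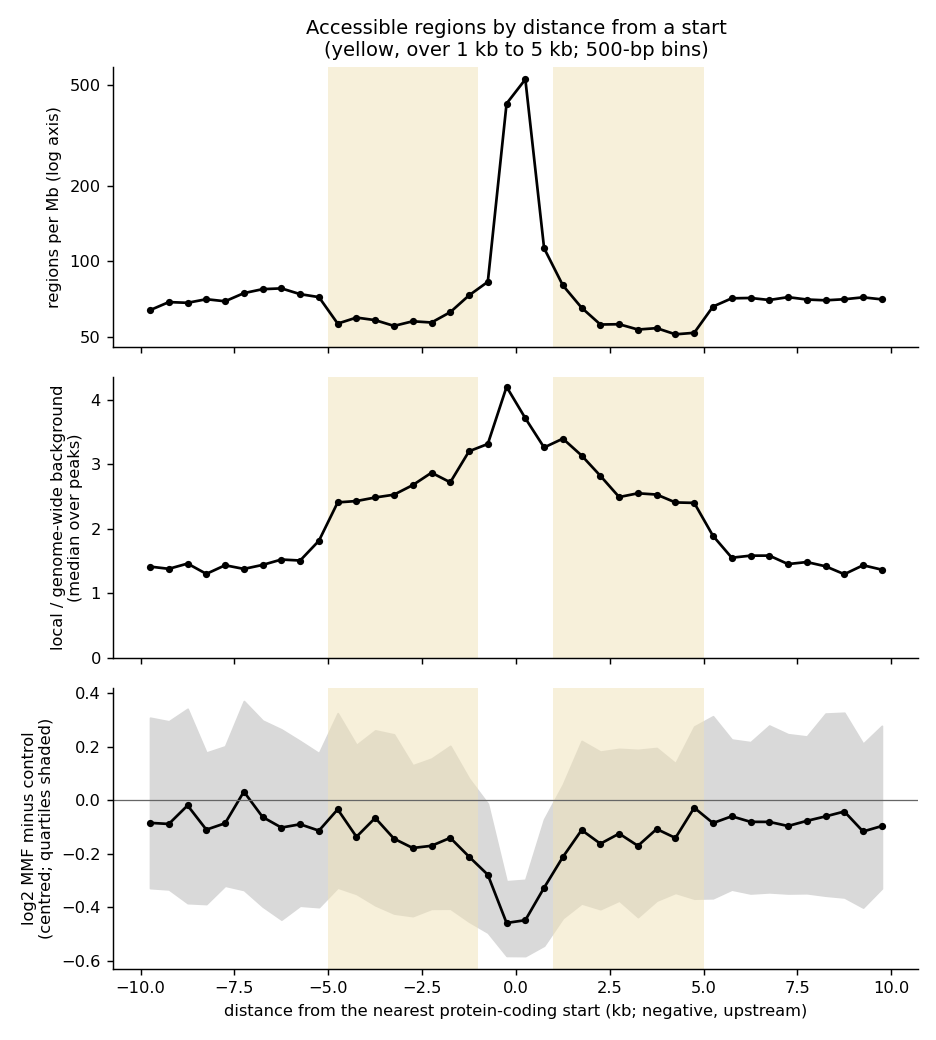
Regions in 500-bp bins by signed distance from the nearest protein-coding start in kb, with the members' range in yellow, showing regions per Mb on a log axis, the median over peaks of local divided by genome-wide background, and the median log2 difference between MMF and control over shared regions with quartiles shaded. Density falls from 73.2 and 80.2 per Mb next to the promoter and rises again outside 5 kb, where the background ratio drops, and the log2 difference is about -0.21 at 1 to 1.5 kb and -0.03 at 4.5 to 5 kb on both sides, with lower medians again just beyond.

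The first question was whether MMF changed how much of the accessible genome lies in the flanks. Control lists held 63802, 61980 and 58403 peaks and MMF lists 86437, 86041 and 80774. Flanking regions took 8.35%, 8.51% and 8.43% of the control peaks and 9.21%, 8.83% and 8.70% of the MMF peaks. Every MMF list lay above every control list, at 8.91% ± 0.267 against 8.43% ± 0.0824 (SD, n = 3 each). A two-sided exact permutation test gave p = 0.1, and groups of 3 cannot give a smaller one. With each list cut to its 58403 peaks of lowest p the shares were 9.32% ± 0.201 and 8.55% ± 0.0974 (SD, n = 3 each, exact permutation p = 0.1), so the groups were also apart at equal length. In the same lists the promoter share went from 22% to 17.6% (22.6% to 21.5% at equal length) and the distal share from 65.5% to 69.8% (64.8% to 65.4%).

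Upstream and downstream members were then compared within these peaks. Upstream members made up 49.4%, 49.1% and 48.2% of the flanking peaks in control and 48.7%, 48.8% and 49.3% in MMF, values that overlap and average 48.9% in both groups (exact permutation test, two-sided, p = 1). At equal list length the upstream share was 48.8% ± 0.696 in control and 49.9% ± 0.279 in MMF (SD, n = 3 each). There the groups did not overlap (exact permutation p = 0.1), so the balance of the sides depended on list length.

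**Figure D2:**
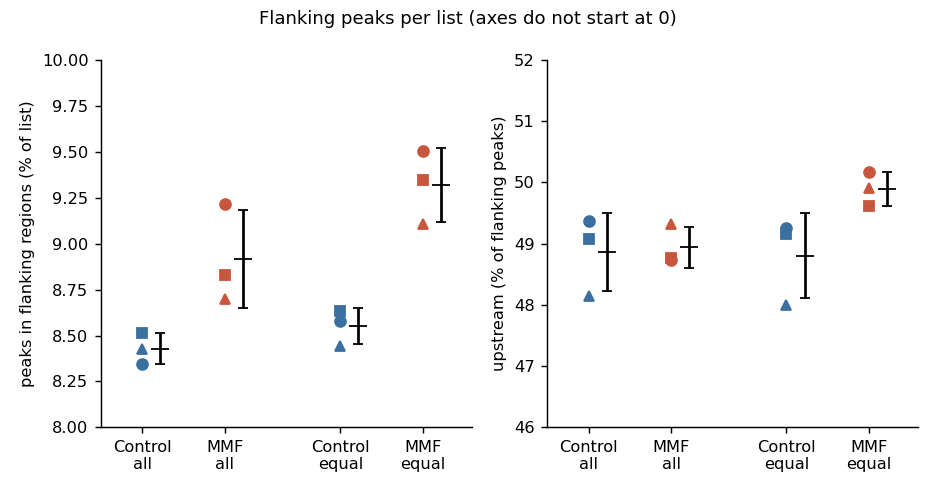
Share of each list's peaks that lie in flanking regions (left, %) and share of those that lie upstream (right, %), for all deposited peaks and for lists cut to equal length, with circles, squares and triangles for replicates 1, 2 and 3, black bars for mean ± SD, and axes that do not start at 0. All MMF lists lie above all control lists on the left, and on the right the groups separate only at equal length.

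By presence, gains far outnumbered losses. Gained members had a peak in each MMF list and in none of the control lists, and lost members the reverse. In all, 747 members (7.30%) were gained and 25 (0.244%) lost, against 6.01% and 0.182% of all regions, and 3315 (32.4%) had a peak in all 6 lists. Upstream, 366 were gained and 11 lost, and downstream 381 and 14. Of promoter regions 1.5% and of distal regions 6.79% were gained. Since the MMF lists are longer, equal list length is the stricter reading. It left 312 gained (3.87%) and 94 lost (1.17%) of 8066 members, against 2.35% and 1.37% of all regions, with 162 gained and 37 lost upstream and 150 gained and 57 lost downstream. Leaving out MMF replicate 3 gave 1205 gained, and leaving out any of the 6 samples gave 41 to 61 lost, since fewer lists then have to agree. Many members sat at the edge of detection. In the full lists 2360 were held by only 1 list, and a further 567 had all 3 MMF peaks and 1 control peak.

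The gained members described next were picked for the highest mean rank in the MMF lists. Their place in the upper part of those lists follows from this choice and does not describe gained members in general. At Clec4b2, a C-type lectin gene, a region in the intron 2762 bp downstream of the start had 34, 34 and 21 summit reads in the MMF samples and no peak in control. An intronic region 1105 bp downstream of the Ms4a4a start (a gene of the CD20-like membrane family) had 22, 24 and 18 reads. The region 3946 bp into Bri3 had 35, 18 and 23 reads. The promoter of that gene fell by 0.61 on the log2 scale (limma adjusted p = 0.0074), in a class where 59.1% of shared regions were called lower at a median of -0.448. Msra, which encodes a methionine sulfoxide reductase, had a gained region 2286 bp upstream with 29, 23 and 20 reads, and Mcmdc2 one 1467 bp upstream with 28, 23 and 23. Reads below a peak caller's threshold are not in the lists, so absence in control means that no peak was called.

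Of the lost members, the highest by rank lay 3071 bp upstream of Fbxo43, a meiotic inhibitor of the anaphase-promoting complex, with 23, 16 and 16 summit reads in control. The Sirt3 member, 4308 bp downstream in an intron of this mitochondrial deacetylase gene, had 25, 18 and 23 reads. The others, next to Shisa7, Gm3045 and Gm11172, held between 6 and 12 reads in each control sample.

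The strength of a peak was then compared over the 41125 regions with a peak in all 6 lists. Summit reads were divided by the sample's genome-wide background and centred on the sample's median over these regions, so that a relative signal of 1 is the median shared region of that sample. This centring matters. Before it, the median region stood at 4.93 ± 0.0108 on the log2 scale in control and 5.28 ± 0.0256 in MMF (SD, n = 3 each, exact permutation p = 0.1), so that values without centring are shifted up by 0.354. The position of the flanks relative to other classes does not depend on it.

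Flanking regions lay between promoters and distal regions in strength and in change. In control samples the median flanking region was 1.11 ± 0.0109 log2 units below the median promoter region, and in MMF samples 0.734 ± 0.0357 below. It was 0.502 ± 0.0195 above the median distal region in control and 0.366 ± 0.0162 above in MMF (SD, n = 3 each). Neither distance overlapped between the groups (exact permutation test, two-sided, p = 0.1 for both), so the 3 classes stood closer together with MMF. The sides did not separate. The upstream median exceeded the downstream median by 0.0196 ± 0.0340 in control and by -0.00313 ± 0.0443 in MMF (exact permutation p = 0.6), and by 0.0219 ± 0.00803 and 0.0163 ± 0.00978 when means over members were used (exact permutation p = 0.6).

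**Figure D3:**
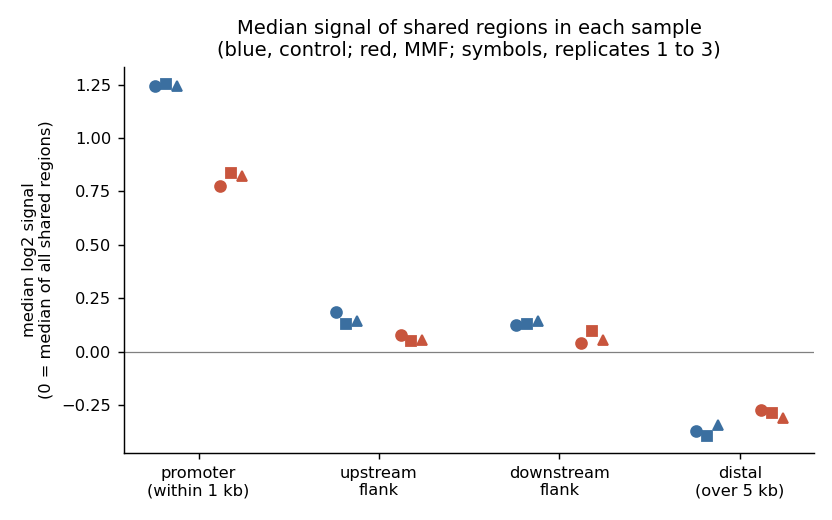
Median log2 signal over shared regions in each sample for promoter, upstream flanking, downstream flanking and distal regions, centred so that 0 is the median of all shared regions of that sample, with control in blue, MMF in red and symbols for replicates 1 to 3. Both flanks sit near 0.1, promoters drop from about 1.25 to about 0.8 with MMF and distal regions lie slightly higher.

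Region by region, limma with Benjamini-Hochberg adjustment over all 41125 shared regions called 283 of the 3315 shared members higher with MMF (8.54%) and 601 lower (18.1%), against 8.78% and 25.3% of all shared regions. Upstream, 143 were higher and 306 lower of 1651, and downstream 140 and 295 of 1664. Without centring the same test called 780 members higher (23.5%) and 69 lower (2.08%), against 21.8% and 3.08% of all. The direction of the balance is therefore set by the scaling, and on neither scale did the higher share of the flanks stand far from the background. The lower share was below the background on both, which takes in the promoters with 59.1% lower centred and 6.63% without centring. It was above the share of distal regions, at 11.1% centred and 1.44% without centring. The median member differed by -0.147 (log2, centred), with -0.153 upstream and -0.144 downstream, compared with -0.448 for promoter, -0.015 for distal and -0.189 for all shared regions. Without MMF replicate 1 the higher calls were 187. On log2 fold enrichment over the local background 116 members were higher and 108 lower, against 4.39% and 6.59% of all shared regions. On ranks of fold enrichment among shared regions 52 were higher and 9 lower (2.27% and 0.571% of all), and on ranks in the whole list 212 and 3 (7.73% and 0.233% of all). Whole-list ranks also move with list length, which was greater in MMF.

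By distance, the bins next to the promoter had the lowest medians on both sides. Between 1000 and 1500 bp the median was -0.211 upstream and -0.213 downstream, and 23.0% and 22.2% of the shared members were called lower. In the outermost bin, 4500 to 5000 bp, the medians were -0.0345 and -0.0283 and the lower calls 12.7% and 14.8%. The bins in between ranged from -0.179 to -0.0665 without a steady order, and those just outside the limit, at 5000 to 5500 bp, were -0.114 upstream and -0.0857 downstream. Relative signal in control went from a median of 1.25 upstream and 1.23 downstream next to the promoter to lower values of 1.04 upstream and about 1 downstream at the limit.

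The difference also graded with CpG content. Shared members with 0 or 1 CpG in the 200 bp at the summit had a median difference of -0.000875, with 14.1% called higher and 9.02% lower of 754. Those with 10 or more had a median of -0.391, with 0.665% higher and 41.7% lower of 451. The groups with 2 to 4 and 5 to 9 CpG lay between, at -0.0583 and -0.217. Gains by presence followed, from 9.75% of the members with 0 or 1 CpG to 1.11% of those with 10 or more. The gradient was present on both sides, from -0.000826 to -0.417 upstream and from -0.0023 to -0.353 downstream. At 10 or more CpG distal regions had the same median, -0.390, and promoters -0.468. CpG-rich members were also stronger, with a median relative signal in control of 1.55 against 0.938. Split by mean signal over all 6 samples into 3 groups of equal size, members with 5 or more CpG had lower medians than members with fewer in each, at -0.202 against 0.00270 in the weakest group, -0.272 against -0.0283 in the middle and -0.351 against -0.104 in the strongest. In every sample CpG-rich members had the higher median, by 0.438 ± 0.0203 in control and 0.212 ± 0.0227 in MMF (log2, SD, n = 3 each, exact permutation p = 0.1).

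A set of 9 motifs was searched on both strands of the 200 bp around each summit. At 3 against 3 samples the exact p cannot go below 0.1, so no motif could pass. Each motif is given as its letters, with N for any base. The letters were TTGCNNAA for C/EBP, GAGGAAGT for PU.1, CCAATCA for NF-Y, CCACACCC for KLF, AACCACA for RUNX, TGANTCA for AP-1, CCGGAAGT for ETS, AGGGGGCGC for CTCF and AGATAA for GATA. None of these contains another, matches of different motifs may overlap, and a match is a description of the letters only. Over all regions they were found in 15%, 8.29%, 3.57%, 2.80%, 10.7%, 16.1%, 1.29%, 1.18% and 6.93% in that order.

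The C/EBP motif had the widest gap in percentage points of the 9. Of the flanking peaks of the control lists 14.0%, 14.2% and 13.9% held one, and of the MMF lists 16.1%, 16.4% and 16.6%. The means were 14.0% ± 0.150 and 16.4% ± 0.276 (SD, n = 3 each, exact permutation p = 0.1, adjusted p = 0.18). Matches to PU.1 went from 8.13% ± 0.263 to 8.74% ± 0.242 and those to GATA from 5.95% ± 0.197 to 6.60% ± 0.0156, again without overlap (exact permutation p = 0.1, adjusted p = 0.18 for both). KLF matches went the other way, from 3.68% ± 0.122 to 3.15% ± 0.0820, as did CTCF matches, from 2.11% ± 0.0638 to 1.56% ± 0.0540 (same p). The groups overlapped for NF-Y, RUNX, AP-1 and ETS. In a 100-bp window they also overlapped for GATA, at 2.72% ± 0.242 in control and 2.87% ± 0.135 in MMF (SD, n = 3 each, exact permutation p = 0.4). At equal list length they did not overlap for RUNX, at 10.7% ± 0.476 and 11.2% ± 0.112 (SD, n = 3 each, exact permutation p = 0.1). The C/EBP difference was present on both sides, at 14.8% against 16.7% upstream and 13.3% against 16.0% downstream.

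Some of the motifs differed in share between members called higher and lower. C/EBP matches lay in 29.0% of the members called higher, in 15.5% of all shared members and in 7.32% of those called lower. For PU.1 the shares were 16.3%, 9.14% and 4.49%, and for RUNX 18%, 11.6% and 7.15%. NF-Y ran in the other direction with 1.06%, 3.59% and 5.99%. GATA (7.07%, 5.85% and 5.99%) and AP-1 (14.1%, 18.3% and 14.1%) showed no such order. Shared members with a C/EBP match had a median difference of 0.0560 and those without one -0.176. For NF-Y the medians were -0.319 with a match and -0.143 without. Members with a CTCF match were as low, at -0.322, and those with an ETS or KLF match had -0.229 and -0.187. Members called higher also held fewer CpG, 2.43 on average against 7.88 in those called lower, and motif and CpG content were not separated. Gained members held C/EBP matches in 22.2% of cases and CTCF matches in 0.402%.

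**Figure D4:**
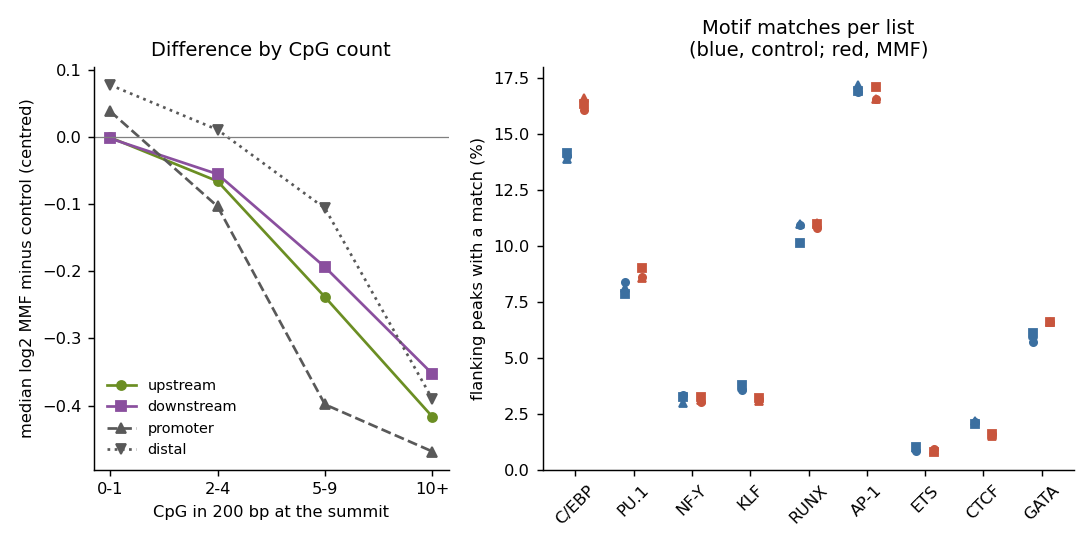
Median log2 difference between MMF and control over shared regions by the number of CpG dinucleotides in 200 bp at the summit, for upstream, downstream, promoter and distal regions (left), and the percentage of flanking peaks with a motif match in each list (right, control in blue, MMF in red, symbols for replicates 1 to 3). The difference falls with CpG content in every class, to -0.417 upstream and -0.353 downstream at 10 or more, and C/EBP matches lie at 14.0% of peaks in control and 16.4% in MMF.

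The 8 members of largest increase had weak control peaks, which a choice by log2 difference favours. The region in the intron of Olfr1389, an olfactory receptor gene, 2623 bp downstream of its start, had relative signals of 0.5, 0.381 and 0.474 in control and 1.54, 1.5 and 1.42 in MMF. This was a log2 difference of 1.73 ± 0.24 (SE, limma adjusted p = 6.06e-08), and the summit went from 8 to 11 reads to 37 to 54. At Cd300e, which encodes an activating receptor of monocytes, the signal 2115 bp downstream went from 0.318, 0.333 and 0.368 to 1.23, 1.07 and 0.923 (log2 difference 1.65 ± 0.27, limma adjusted p = 2.39e-06). Samsn1, a gene for a signalling adaptor of blood cells, had a region 2926 bp upstream of one start, in an intron of a longer transcript, with 0.455, 0.524 and 0.632 in control and 1.71, 1.46 and 1.46 in MMF (1.54 ± 0.23, adjusted p = 4.12e-07). Its promoter differed by 0.40, which did not pass (limma adjusted p = 0.0909).

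Gja5, encoding the gap junction protein connexin 40, had 0.318, 0.286 and 0.316 in control and 1.11, 0.786 and 0.885 in MMF at 3351 bp downstream (log2 difference 1.58). The region nearest the predicted gene Gm12117, in an intron of Ranbp17, rose by 1.54. Svil, the gene of the actin-binding protein supervillin, rose by 1.46 at 2250 bp downstream, from at most 0.318 in control to at least 0.714 in MMF. Its promoter had a difference of -0.46 (limma adjusted p = 0.0832), near the median of -0.448 for shared promoter regions. Hormad2, a meiotic gene, and Gzmk, which encodes granzyme K, had regions 1364 and 1685 bp upstream with differences of 1.45 and 1.38. The 8 were picked among calls without overlap between the groups. All were called without centring too, and control summits held 5 to 12 reads. Only 2 of the 8 genes had a shared promoter region of their own.

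**Figure D5:**
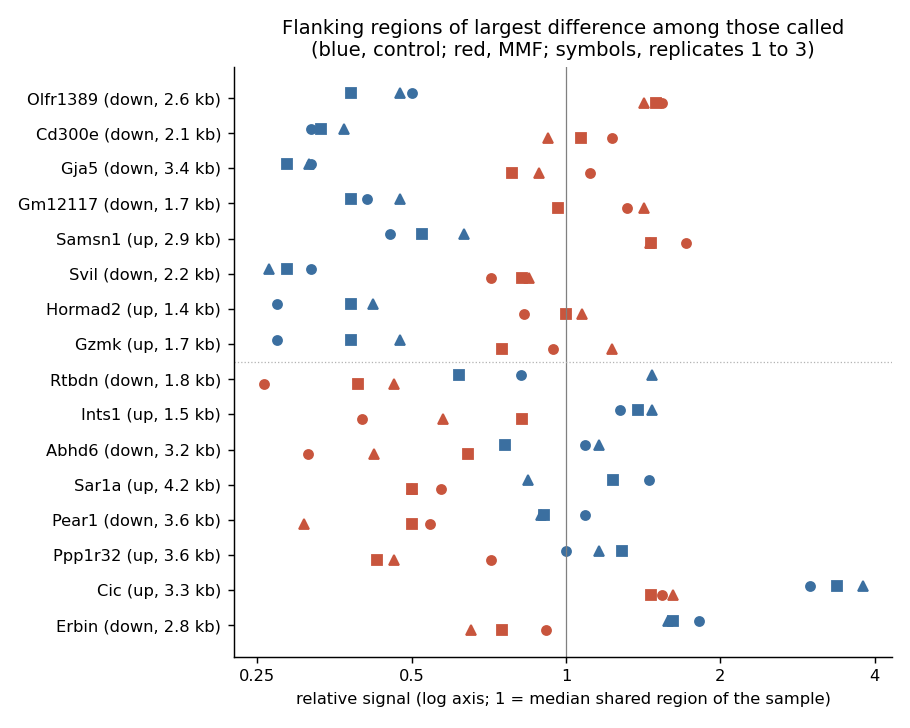
Relative signal in each sample (log axis, 1 is the median shared region of that sample) for the 8 flanking regions of largest and the 8 of smallest log2 difference among those called, with side and distance in kb, control in blue, MMF in red and symbols for replicates 1 to 3. The rows were chosen among calls whose groups do not overlap, and Cic alone stays above 1 in all samples.

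Decreases of similar size on the centred scale were found in stronger control peaks. A peak that fell this far had to be strong enough in control to stay listed in MMF, so this contrast with the increases follows in part from the choice. Without centring the sizes were not similar, at 1.74 to 2.08 for the 8 increases and -0.98 to -0.77 for the 8 decreases. At Cic, the gene of the transcriptional repressor capicua, a region 3271 bp upstream of one start had 3, 3.38 and 3.79 in control and 1.54, 1.46 and 1.62 in MMF, with 66 to 72 control reads. The log2 difference was -1.13 ± 0.15 (SE, limma adjusted p = 6.51e-09), and the promoter of Cic fell by 0.60 (adjusted p = 4.65e-06). Erbin, which encodes a scaffold protein of cell junctions, had 1.82, 1.62 and 1.58 against 0.914, 0.750 and 0.654 at 2780 bp downstream (log2 difference -1.12, adjusted p = 2.15e-05). Upstream of Ints1, a subunit gene of the Integrator complex, the values were 1.27, 1.38 and 1.47 against 0.4, 0.821 and 0.577 (log2 difference -1.26, adjusted p = 3.64e-05).

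The largest decrease, at Rtbdn in a coding exon 1789 bp downstream of the start, rested on more variable values, 0.818, 0.619 and 1.47 in control and 0.257, 0.393 and 0.462 in MMF (log2 difference -1.33 ± 0.29, adjusted p = 0.000223). Abhd6, Sar1a, Pear1 and Ppp1r32 had differences between -1.16 and -1.13. Abhd6 encodes a lipid hydrolase and Sar1a a GTPase of the secretory pathway. Where the 8 genes had a shared promoter region, in 6 cases, its difference ranged from -0.40 to -0.78 and passed the test at 5 of the 6, in a class where 59.1% of all shared regions were called lower at a median of -0.448. All 8 decreases were called without centring. On ranks among shared regions the call at Ppp1r32 alone remained, and Erbin also lost it on log2 fold enrichment.

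Very strong members were few and unusual. The 4 upstream and 4 downstream members of highest control signal lay next to Gm11168, Gm10721, Sspn and Atf2 and next to Gm21738 (3 regions) and Il31ra. The 5 beside the predicted Gm genes lay in sequence that the assembly marks as repeats over 95% to 100% of the window, compared with a mean of 16.1% for all members, and the placement of reads among copies of a repeat is uncertain. Of the other named regions, those of Hormad2 (89%), Abhd6 (83.5%), Itgam (90.5% at 3356 bp upstream), Impdh1 (77%) and Wdr5 (70%) were also mostly repeat-marked. One Gm21738 region had relative signals of 1213, 1181 and 1216 in control. The other 3 were not repeat-marked beyond 15%. Sspn, at 1210 bp upstream, had 66, 67.3 and 58.8 in control and 38.4, 38.3 and 42.1 in MMF. Atf2 had 35.5, 33.9 and 30.7 against 19.5, 21.9 and 21.9 at 4692 bp upstream, and Il31ra 102, 105 and 97.0 against 58.7, 61.4 and 62.4 at 2419 bp downstream. All 8 were lower with MMF, by 0.57 to 0.73 on the centred log2 scale (differences of -0.21 to -0.38 without centring). On log2 fold enrichment the calls at Gm11168, Gm10721 and the Gm21738 region 1160 bp downstream were lost (limma adjusted p = 0.288, 0.168 and 0.1225). Ranks say little of a change at Sspn, Atf2 and Il31ra, which stood above 99.9% of their lists in all samples. By fold enrichment over the local background the others ranked unevenly. Mean percentile ranks in control were 0.960 for Gm21738 at 1160 bp, 5.08 for Gm10721, 60.8 for Gm11168, and 99.7 and 95.5 for the other Gm21738 regions.

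Around regulators of this leukemia, 11 of a list of 19 genes had a member, 14 members in all. Meis1, a homeobox cofactor that MLL-AF9 activates, had a region 1555 bp upstream with 2.77, 2.48 and 2.53 in control and 1.57, 1.54 and 1.38 in MMF. The log2 difference was -0.79 ± 0.16 (SE, limma adjusted p = 5.71e-05), close to that of the Meis1 promoter, -0.76. It was called without centring (-0.44, adjusted p = 0.0314) but not on log2 fold enrichment (-0.118, adjusted p = 0.698). Klf1, an erythroid transcription factor gene, had 3.82, 3.48 and 4.32 against 2.71, 2.64 and 2.96 at 1264 bp downstream, in a coding exon (-0.48, adjusted p = 0.00198). That call was lost without centring (-0.12, adjusted p = 0.523).

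The members at Cdk6, Cebpd, Cebpe and Irf8 did not pass. Cebpd, which encodes C/EBPδ, had 1.09, 1.48 and 1.21 in control and 1.46, 1.43 and 2.15 in MMF at 2850 bp downstream (0.40, adjusted p = 0.0895, and 0.75 with adjusted p = 0.00151 without centring). Cdk6 had 1.45, 1.48 and 1.58 against 1.00, 1.14 and 1.19 (-0.44, adjusted p = 0.0673). The gained member was in Csf3r, the G-CSF receptor gene, 3598 bp downstream, with 9, 7 and 8 reads in MMF. At Spi1, encoding PU.1, an intronic region was called in 1 control list with 11 reads and in all 3 MMF lists with 23, 23 and 18. Upstream of Itgam, the gene of CD11b, 1 region had peaks in 1 control and 3 MMF lists and a second in 2 and 3. Myc, Pbx3, Hoxa9, Hoxa10, Cebpa, Impdh2, Men1 and Psip1 had no flanking region, and the only Impdh1 member had peaks in 2 MMF lists.

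Across 10 gene lists, the numbers in each were small. They are to be read against the 8.78% of all shared regions called higher and the 25.3% called lower, and against the 7.30% of all members gained. Granulocyte and monocyte genes had the most members, 76 at 43 of 52 genes, and of the 37 shared ones 8 were called higher and 2 lower, with a median of 0.0574 against -0.147 for all shared members. Downstream of Fpr2, a formyl peptide receptor gene, the values were 0.636, 0.571 and 0.421 in control and 1.20, 0.964 and 1.42 in MMF (log2 difference 1.14, limma adjusted p = 0.000225). Tlr2, a receptor for bacterial lipoproteins, had a member higher by 1.10 downstream and one by 0.40 upstream. Others called higher were next to Cd33 (0.85), Ly6g (0.67), Mpo (0.52) and Il6ra (0.44), which are a surface lectin, a neutrophil antigen, the myeloperoxidase of primary granules and the interleukin-6 receptor. Those called lower were next to Ccl6 (-0.79) and Csf2ra (-0.45). Of the 76, 1 was gained, at Csf3r, and 1 lost, at Ncf1.

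MLL-AF9 target and stem cell genes had 34 members at 17 of 29 genes. None of the 10 shared ones was higher, which at this number is near the share over all shared regions, and 4 were lower, all upstream, next to Hoxa7, Meis1, Sox4 and Ikzf2 (median of the 10, -0.404). Hoxa7 had 2.68, 3.05 and 2.84 in control and 1.74, 1.64 and 1.5 in MMF at 3165 bp upstream (-0.81, limma adjusted p = 2.09e-05, and -0.85 at its promoter), and its call was lost on log2 fold enrichment (-0.189, adjusted p = 0.522). The highest of the list, at Mecom, differed by -0.03 and changed sign under several settings. Menin complex and partner genes had 5 shared members, with Wdr5 higher (0.58, adjusted p = 0.0185) and Dot1l (-0.57) and Cdk9 (-0.48) lower. Wdr5 overlapped between the groups and lost its call without Control replicate 1, MMF replicate 2 or MMF replicate 3.

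Myeloid transcription factor genes had 16 shared members, of which 4 were lower, a share close to that of all shared regions, at Rara on both sides, at Cebpb and at Jun (-0.70), and none higher. Of the 10 shared members of erythroid and megakaryocyte genes 5 were lower, including both sides of Nfe2 (-0.79 downstream, 2.05, 1.90 and 2.21 in control against 1.34, 1.11 and 1.12), with none higher. In the list of mast cell, basophil and eosinophil genes 1 of 4 was higher, at Prss34 (0.93), and 2 of its 11 members were gained, at Prg2 and Cpa3. Guanine nucleotide genes had 3 shared members and 1 call, Ampd3, an AMP deaminase (0.67, adjusted p = 0.0185), which overlapped between the groups and lost its call without Control replicate 1, MMF replicate 2 or MMF replicate 3. Of p53 targets 2 of 4 were lower, at Bbc3 (-0.79) and Sesn2 (-0.47), while members at Cdkn1a and Gadd45a were gained. Lymphoid genes had 1 lower call of 5, at Lck (-0.78), lost without Control replicate 1 or MMF replicate 3, and gained members at Bcl11b and Il7r. RNA polymerase I and nucleolar genes had 3 members and no call. Without centring, where 21.8% of all shared regions were higher and 3.08% lower, the calls became 17 higher and 0 lower for granulocyte and monocyte genes and 0 higher and 2 lower for MLL-AF9 targets. The balance turned for myeloid transcription factor genes, with 3 higher and 0 lower, and for menin genes, with 1 and 0. Erythroid genes had 1 of each and p53 targets 0 higher and 1 lower.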

How the data were processed

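The reads of 3 control and 3 MMF-treated ATAC-seq samples were mapped by the authors to mm10 with Bowtie2 (the submitters' processing notes also name FastQC and Trim Galore), and peaks were called by the authors on each sample with MACS2, per the labels and methods. The deposited lists give a fold enrichment (a ratio to the local background), −log10 p and q values and a score, which was not used. Summit reads and background were solved from fold enrichment and p, and came out whole for 100% of peaks (misfit of at most 0.1% in −log10 p). Between 0.362% and 0.447% of a list lay on other sequences and was left out. Median summits held 14 to 19 reads, and counting error is largest for weak peaks. Read depth itself is unknown, and differences by PePr were not repeated, since the reads were not used.

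Peaks that overlapped or touched were merged. The test over shared regions was limma 3.58.1 under R 4.3.3 (trend, adjusted p below 0.05, all 41125 regions). Values per sample were compared with exact permutation tests, coded in Python 3.11.15 with numpy 2.4.6. On simulated data for this comparison with 200 of 41125 regions shifted, 30, 157 and 200 were called at log2 shifts of 0.5, 1 and 2. No pair of lists was a copy of another, with 574 to 672 identical intervals. Motifs, CpG and repeat marks were read with pysam 0.24.0. Named regions were the 8 highest and 8 lowest calls without overlap, the 5 gained and 5 lost of highest mean rank, the 4 strongest of each side, those at 19 fixed genes and the extremes of 10 gene lists, with others named from these lists after their values were seen. Members, lists and rules were chosen with earlier results of these data known. Values for a few genes of these lists are not reported here.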

Additional observations from a re-analysis of the deposited data

How the results depend on the processing

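Summit reads come from peak lists, so regions below a list's threshold have no value, and weak peaks of 5 to 12 reads carry large counting error. The share of peaks in the flanks kept its direction under all 12 alternatives, with MMF higher by 0.336 to 0.593 percentage points when 1 sample was left out. The upstream share ranged from -0.277 to 0.328 points in the same way and turned without Control replicate 3 (-0.277) or MMF replicate 3 (-0.114). At equal list length 312 members were gained and 94 lost, and leaving out 1 sample gave 890 to 1205 and 41 to 61. The limma calls depended most on the scale. Higher calls were 780 without centring, 116 on log2 fold enrichment, 52 on ranks among shared regions and 212 on ranks in the whole list, and 187 to 261 with 1 sample left out. Lower calls were 69 without centring, 108 on log2 fold enrichment, 9 on ranks among shared regions, 3 on ranks in the whole list, 346 without the intensity trend, 381 for members over 2 kb away, where fewer regions count, and 450 to 516 with 1 sample left out. Apart from the construction of each alternative, the cause was not tested.

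The change in upstream minus downstream median turned from -0.0228 to 0.00199 on ranks among shared regions, 0.00161 on log2 fold enrichment, 0.00303 for members over 2 kb away and 0.0049 with starts from gene records only, with -0.0441 to 0.000133 when 1 sample was left out. Among motifs, AP-1 turned to 0.133 and ETS to 0.0317 percentage points at equal list length, NF-Y ranged from -0.169 to 0.00753 and RUNX from -0.0256 to 0.391 with 1 sample left out. The RUNX groups separated at equal list length, with a difference of 0.492 points. The GATA groups overlapped in a 100-bp window, with a difference of 0.147 points. Of 37 named regions called, 31 kept the call without centring, 25 on log2 fold enrichment, 11 on either rank, 34 without the trend and 34 to 37 with 1 sample left out. On whole-list ranks, which rise with list length and are near their ceiling for the strongest regions, the sign turned for Sspn (0.0871), Atf2 (0.0398), Gm21738 at 1624 bp (0.102), Il31ra (0.0509), Meis1 (0.0917), Hoxa7 (0.0404), Ccr3 (0.0068), Mecom (0.374) and Rrs1 (0.59). Mecom and Rrs1 also turned on ranks among shared regions (0.114 and 0.27), on log2 fold enrichment (0.108 and 0.133) and without centring (0.323 and 0.272), as did Cebpe without centring (0.137). With 1 sample left out Mecom ranged from -0.244 to 0.107, Cd79b from -0.134 to 0.409, Rrp9 from -0.0253 to 0.25, Rrs1 from -0.189 to 0.0115 and Polk from -0.0845 to 0.343.

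In the gene lists, equal list length left 0 gained members for MLL-AF9 target, granulocyte and monocyte, erythroid and megakaryocyte and lymphoid genes, 1 for guanine nucleotide and 1 for p53 target genes, with 2 lost for myeloid transcription factor and 1 for erythroid genes. With starts from gene records only, 2 myeloid transcription factor, 2 erythroid and 1 p53 target members were gained and 0 myeloid transcription factor members lost.

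With the replicate number as a block, the replicate block fit called 283 members higher and 604 lower, and all 37 named calls were kept. Same-numbered samples did not deviate together region by region (correlations of -0.000928, 0.00368 and -0.00263), and not every sample correlated best with its own number. List length fell with replicate number in both groups, from 63802 to 58403 peaks in control and from 86437 to 80774 in MMF. Whether same-numbered samples were handled together is not stated in the labels and was not tested.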
